A study of Mus musculus with 8 samples.

Results

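The comparison described here sets bone marrow macrophages that lack Rbpj against wild-type macrophages before any TNF was added, in 4 of the 8 libraries of the series. The 4 libraries are replicates 1 and 2 of wild type at day 0 and replicates 1 and 2 of the Rbpj knockout at day 0, chosen by their labels, and they were compared within replicate number. The cells came from mouse bone marrow and are labelled as bone marrow macrophages. Knockout cells came from mice with 2 floxed Rbpj alleles and Cre expressed from the LysM locus (Rbpj f/f;LysMCre), which deletes the gene in the myeloid lineage. The labels call the other genotype a wild type control, and any floxed or Cre allele it carries is not given in the sources used here. Another 4 libraries held the same genotypes after 2 days with 40 ng/ml TNF, and they enter only the estimate of the spread and the last comparison. The sources used here do not give the age, sex or number of the mice. The series states 2 independent experiments but names no animals, and the p-values then reflect only how these libraries vary, which may be partly technical.

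Rbpj encodes RBP-J, the factor that carries signals of all Notch receptors to DNA. Without a Notch signal it sits on its sites with co-repressors and holds targets down. When a ligand such as Jagged or Delta engages a receptor, the freed Notch intracellular domain and a Mastermind protein turn the same complex into an activator. Loss of RBP-J can therefore lower or raise a target. In macrophages RBP-J is known for its part in inflammatory and interferon-related gene expression and as a brake on osteoclast formation.

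Before TNF, the transcript of Rbpj itself was lower in the knockout, and it was the only one of 12194 genes past the threshold of the main test (limma, Benjamini-Hochberg adjusted p under 0.05; 0.0082% of genes). Levels that were higher in the knockout in both replicate pairs included those of the Notch target Hes1, of surface receptors such as Pilra, Treml4 and Clec7a, of the histone demethylase gene Kdm6b and of the iron exporter gene Slc40a1. Lower levels in both pairs were seen for Pdpn, Spp1, Tuba1a and the Notch ligand gene Jag1. Genes of the interferon response and of MHC class II were mostly higher in the knockout in both pairs, with larger differences in pair 2. Apart from Rbpj, these are values that did not pass the main test, which rests on 3 residual degrees of freedom.

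Values are CPM, reads counted for a gene scaled to the same library total, and log2 differences are knockout minus wild type of log2(CPM + 0.5), a scale that understates the difference of low genes. Pair 1 is knockout replicate 1 against wild-type replicate 1, and pair 2 likewise for replicate 2. The day 0 libraries held 27437659 and 26956109 reads for wild type and 27982448 and 22510387 for the knockout. Across all genes tested the median log2 difference was 0.03 in pair 1 and -0.01 in pair 2. The SD across genes was 0.35 in pair 1 and 0.63 in pair 2, so the genotypes lay farther apart in pair 2. At least a 2-fold difference was seen for 291 genes in pair 1 and 1077 in pair 2. In both pairs 116 genes were at least 2-fold higher (0.951% of genes) and 55 at least 2-fold lower (0.451%), while 4 were 2-fold different in opposite directions. The direction was the same in both pairs for 3881 higher genes (31.8%) and 3154 lower genes (25.9%). Both knockout libraries lay above both wild-type libraries for 1202 genes (9.86%) and below both for 1056 (8.66%). These shares are the background against which the counts of each gene list are read.

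The number of calls depended on the tool. Of the 12194 genes, an unadjusted p under 0.05 was found for 729 by limma and 779 by edgeR on the recovered reads. With no difference in any gene, a share of about 0.05 of them would be found. After adjustment edgeR also called 1 gene. DESeq2 on the same reads called 139 genes higher (1.14%) and 49 lower (0.402%), and all 188 had the same direction in both pairs. Of the genes at least 2-fold different in both pairs, 82 of the 116 higher and 24 of the 55 lower ones were among the DESeq2 calls. Beyond Rbpj the smallest adjusted p in limma was 0.0835. A DESeq2 call is named as such below and is not a call of the main test. Many list members named below were picked by the size of their moderated t in limma, which favours pairs that agree. Their DESeq2 calls and the agreement of their pairs add no separate evidence.

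**Figure D1:**
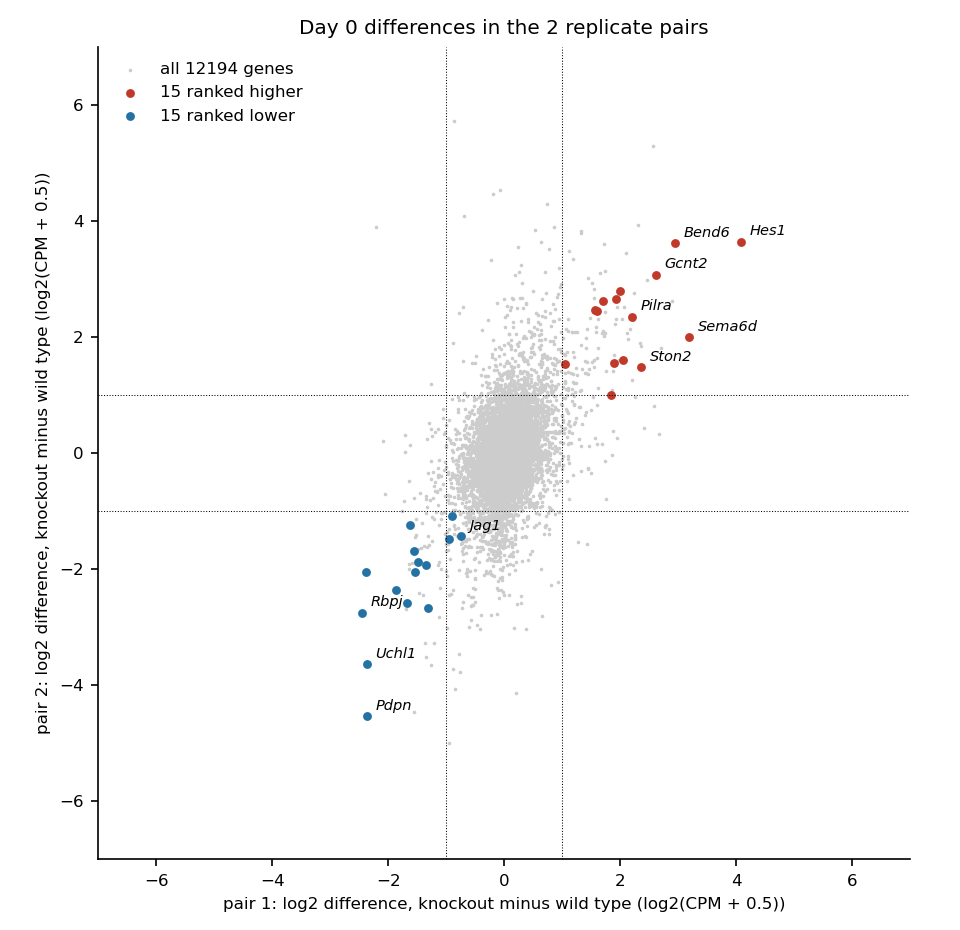
Each point is 1 of the 12194 genes, with its log2 difference between knockout and wild type at day 0 in pair 1 on the x axis and in pair 2 on the y axis; dotted lines mark a 2-fold difference, and red and blue points are the 15 genes ranked highest in each direction. The cloud is taller than wide (SD 0.63 against 0.35), and Hes1, at 4.08 and 3.65, lies at the upper right.

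Rbpj (chromosome 5, 53466152 to 53657362, GRCm38) stood at 215 and 216 CPM in the wild-type libraries and 38.9 and 31.8 CPM in the knockout libraries. The groups did not overlap, and the knockout held the lower values in both pairs. The log2 difference was -2.60 ± 0.17 (limma, moderated SE, adjusted p = 0.0264), and it fell by 2.45 in pair 1 and by 2.75 in pair 2. Without the replicate term the adjusted p was 0.238, and with edgeR and the replicate term 0.0336. The call was also lost without any 1 of 6 libraries (adjusted p 0.0985 to 0.723). The values sum the reads over all exons, and which exons are floxed is not stated there or in the labels. In these bulk libraries, a few cells that keep the gene and a low level in every cell cannot be told apart.

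Among transcripts of the Notch pathway, Jag1, a ligand, had 99.5 and 79.4 CPM in wild type and 59.1 and 29.2 CPM in the knockout. The log2 differences were -0.75 and -1.43 in the 2 pairs (-1.09 ± 0.23, limma adjusted p = 0.375; DESeq2 adjusted p = 0.0124). Of the receptors, Notch1 had 79.9 and 56.1 CPM in wild type and 111 and 68.4 CPM in the knockout, and Notch2 had 214 and 143 against 196 and 146 CPM. The ranges of the genotypes overlapped for both receptors. Maml3, a Mastermind co-activator, had 15.3 and 15.5 CPM in wild type and 31.3 and 27.8 CPM in the knockout, without overlap (0.91 on the log2 scale; DESeq2 call).

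Hes1, a repressor of the basic helix-loop-helix family and a classical target of Notch and RBP-J, had 2 and 3 reads in the wild-type libraries and 257 and 161 reads in the knockout libraries. These are 0.0729 and 0.111 CPM against 9.18 and 7.15 CPM, so the gene was near the limit of detection in wild type and low but clearly counted in the knockout. The ratio of the summed reads was 90.1 (95% counting interval 38.3 to 279), and the log2 difference was 3.86 ± 0.33 (limma adjusted p = 0.0835; DESeq2 adjusted p = 8.93e-09). Other targets were not higher to this degree. Hey1 had 0.401 and 0.668 CPM in wild type and 1.14 and 1.02 CPM in the knockout, and Nrarp had 4 reads over the wild-type and 6 over the knockout libraries. Dtx4, a Deltex ubiquitin ligase linked to Notch, had 141 and 109 CPM in wild type and 282 and 172 CPM in the knockout (0.83 ± 0.16, limma adjusted p = 0.323; DESeq2 adjusted p = 0.00183). Of the 35 Notch pathway genes tested, 19 were higher and 8 lower in both pairs, beside 31.8% and 25.9% of all genes. Limma called 1 (Rbpj), and the median log2 difference was 0.16 beside 0.01 over all genes.

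**Figure D2:**
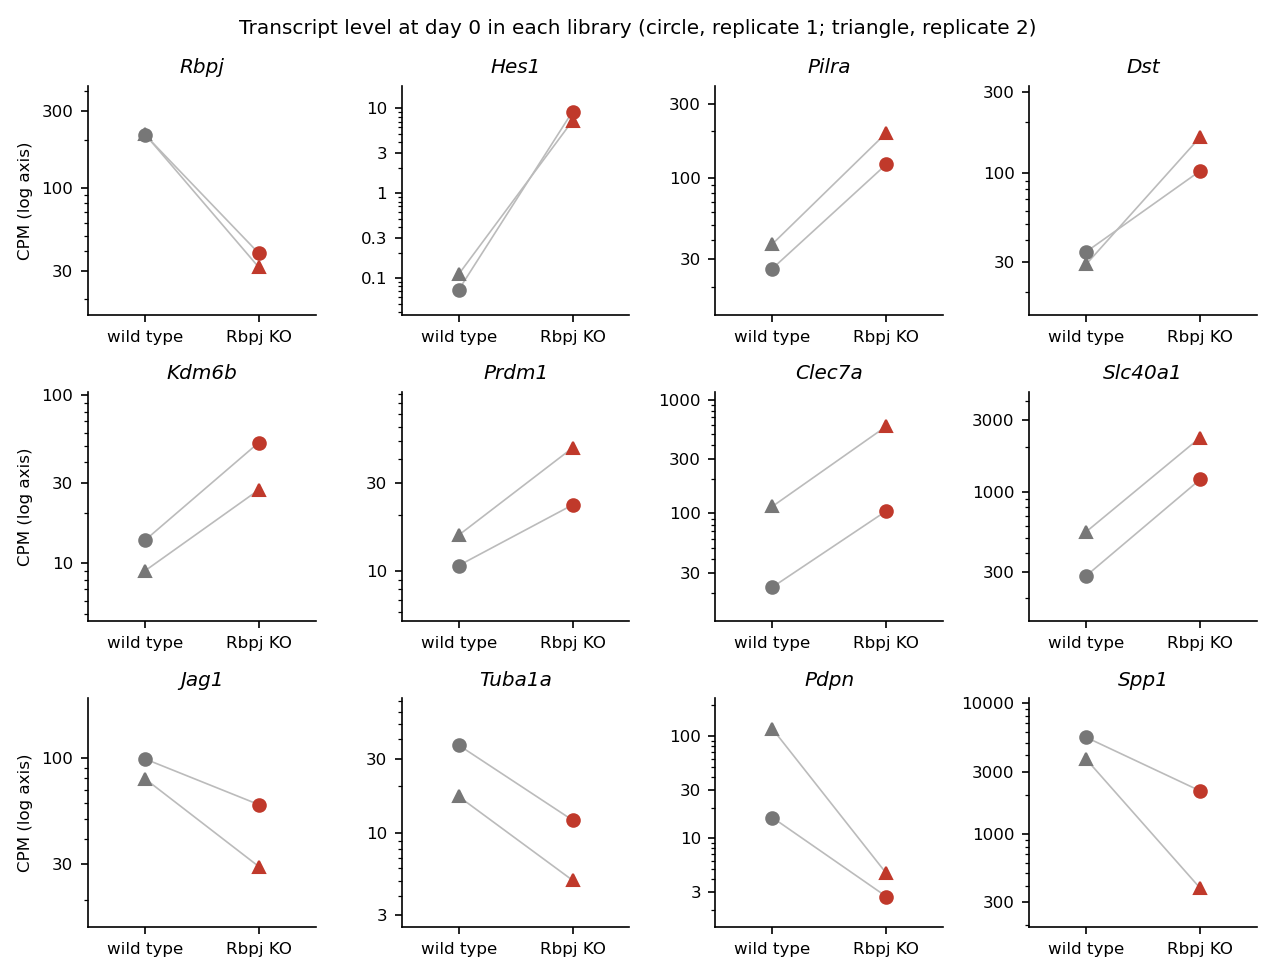
Each panel gives the CPM of 1 gene on a log axis in the 2 wild-type (grey) and 2 knockout (red) libraries at day 0, circles for replicate 1 and triangles for replicate 2, with lines joining the libraries of a pair. Rbpj drops from 215 and 216 to 38.9 and 31.8 CPM. Clec7a and Slc40a1 run parallel in the 2 pairs at different levels, a trait that naming by moderated t favours.

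Pilra, an inhibitory receptor of myeloid cells, followed Hes1 in the ranking of higher genes by the moderated t of limma. It had 26.2 and 37.7 CPM in wild type and 122 and 195 CPM in the knockout. The ranking took only genes whose groups did not overlap, so that separation is no result for the genes in it. It went by moderated t, which favours pairs that agree, so agreement of the pairs is no result either. For Pilra the log2 differences were 2.20 and 2.35 in the 2 pairs (2.28 ± 0.21, limma adjusted p = 0.0865; DESeq2 adjusted p = 9.43e-17). Without either knockout TNF library, limma called it too (adjusted p = 0.0362 and 0.0385). Next came Dst, which encodes the cytoskeletal linker dystonin, with 34.3 and 29.0 CPM against 103 and 162 CPM (2.02 ± 0.23, adjusted p = 0.221). Treml4, a receptor of the TREM family that amplifies Toll-like receptor 7 signalling, had 7.84 and 11.2 CPM in wild type and 26.8 and 71.3 CPM in the knockout. Acsf2, an acyl-CoA synthetase of mitochondria, had 8.93 and 4.75 CPM against 28.2 and 28.1 CPM. None of these 4 genes passed limma with all libraries.

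Promoters of these 4 genes, from 250 bases before to 50 bases after the annotated start, hold the core TGGGAA of the RBP-J binding site and are shown for that reason. They are RefSeq sequences on GRCm38.p6, printed 5′ to 3′ along the gene. Capitals mark TGGGAA, or its reverse complement TTCCCA where the site lies on the other strand. The Pilra window is chr5:137836229-137836528 on the minus strand, with the site 25 bases before the start. The Dst window is chr1:34160010-34160309 (plus strand, 194 bases before), the Treml4 window chr17:48264045-48264344 (plus strand, 60 bases before) and the Acsf2 window chr11:94601737-94602036 (minus strand, 184 bases before). The Dst window belongs to a start inside the gene, which spans 33908225 to 34308661. In Acsf2 the site reads as the longer GTGGGAA on the other strand. The core was in 8 of 15 promoters of the genes ranked higher. It was also in 3 of 14 promoters of those ranked lower, which belong to Rbpj and Cbr2. No promoter of Hes1 was in the set used.
Pilra: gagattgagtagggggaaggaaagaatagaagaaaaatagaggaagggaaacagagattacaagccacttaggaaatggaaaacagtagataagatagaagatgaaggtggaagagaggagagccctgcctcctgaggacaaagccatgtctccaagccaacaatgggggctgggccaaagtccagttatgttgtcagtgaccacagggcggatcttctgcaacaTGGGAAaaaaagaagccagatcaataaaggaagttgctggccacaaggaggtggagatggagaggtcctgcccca
Dst: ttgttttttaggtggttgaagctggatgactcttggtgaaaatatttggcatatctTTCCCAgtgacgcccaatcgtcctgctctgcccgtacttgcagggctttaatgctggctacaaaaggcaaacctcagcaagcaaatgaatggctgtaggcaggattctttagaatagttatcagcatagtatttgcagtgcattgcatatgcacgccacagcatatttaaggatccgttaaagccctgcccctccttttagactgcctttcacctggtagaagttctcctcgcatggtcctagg
Treml4: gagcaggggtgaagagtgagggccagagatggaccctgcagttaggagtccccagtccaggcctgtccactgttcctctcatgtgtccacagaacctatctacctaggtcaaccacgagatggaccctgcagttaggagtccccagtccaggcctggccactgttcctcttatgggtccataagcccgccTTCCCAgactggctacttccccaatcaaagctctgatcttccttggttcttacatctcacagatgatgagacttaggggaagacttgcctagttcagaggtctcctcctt
Acsf2: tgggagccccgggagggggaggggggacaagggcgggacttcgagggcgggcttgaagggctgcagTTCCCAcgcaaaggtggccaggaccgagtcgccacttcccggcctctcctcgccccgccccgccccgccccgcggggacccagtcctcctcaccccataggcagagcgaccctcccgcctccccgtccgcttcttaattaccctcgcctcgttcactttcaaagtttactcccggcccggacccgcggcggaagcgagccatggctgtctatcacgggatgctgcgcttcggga

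On either strand TGGGAA was in 40 of the 101 promoters of genes at least 2-fold higher in both pairs (39.6%) and in 14 of the 56 promoters of genes at least 2-fold lower (25.0%). Over all genes tested it was in 2765 of 11901 promoters (23.2%). GTGGGAA, which contains TGGGAA, was in 9.90%, 5.36% and 6.13% of these promoters in the same order, or 10, 3 and 730 promoters. GAAANNGAA, the core of the interferon-stimulated response element, was in 15.8%, 7.14% and 7.31%. With the DESeq2 calls as the sets, TGGGAA was in 42.0% of the promoters of higher genes and 21.8% of those of lower genes. The order turned for the other motifs, with GTGGGAA in 8.40% and 9.09% and GAAANNGAA in 10.7% and 10.9%. Promoters were found for 79 of the 116 higher and 41 of the 55 lower genes. A gene can have several promoters in the table, and a match of letters is a description, not a bound site.

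The other genes ranked higher fell into several kinds. Kdm6b, the histone H3 lysine 27 demethylase JMJD3, had 13.7 and 9.01 CPM in wild type and 52.4 and 27.4 CPM in the knockout, log2 differences of 1.90 and 1.55. Prdm1, which encodes the repressor BLIMP1 of osteoclast and lymphocyte differentiation, had 10.7 and 15.6 CPM against 22.7 and 46.1 CPM. Bend6, a protein that binds RBP-J and antagonises Notch in neural cells, had 0.510 and 1.56 CPM against 7.29 and 24.9 CPM (3.29 ± 0.48, limma adjusted p = 0.271). Each of these 3 genes was called by DESeq2.

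Further genes of the upper ranking act at the membrane, in the cytoskeleton and in the cell cycle. Sema6d, a transmembrane semaphorin, had 1.57 and 8.12 CPM in wild type and 18.3 and 34.0 CPM in the knockout. Gcnt2, which makes branched I-antigen glycans, had 2.15 and 1.63 against 15.7 and 17.5 CPM, and Abi3, a regulator of actin assembly, 23.3 and 13.7 against 94.0 and 97.6 CPM. Ccnd2, cyclin D2 of the G1 phase, had 21.2 and 10.5 CPM against 82.2 and 69.3 CPM, a direction opposite to most other cell cycle genes below. Tgm2, transglutaminase 2, was the most abundant of them, at 256 and 275 CPM against 912 and 553 CPM. Tmem51 and the endocytic adaptor gene Ston2 completed the 15, with log2 differences of 1.83 and 1.92. All 15 were called higher by DESeq2, with adjusted p from 9.43e-17 (Pilra) to 2.83e-05 (Sema6d), and the limma adjusted p of the 15 ran from 0.0835 to 0.271. The 15 were ranked on the same reads, so these calls add no separate evidence.

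Among genes ranked lower, Tuba1a, an alpha-tubulin, came after Rbpj, with 36.6 and 17.2 CPM in wild type and 12.2 and 5.02 CPM in the knockout (-1.62 ± 0.19, limma adjusted p = 0.265; DESeq2 adjusted p = 3.34e-08). Its log2 differences of -1.55 and -1.68 in the 2 pairs were alike, a trait the ranking favours, although replicate 2 was lower than replicate 1 in both genotypes. Alpha-tubulin genes are near-identical in sequence, and how shared reads were counted was not stated, so its level is uncertain. Pdpn, podoplanin, a mucin-type glycoprotein of inflammatory macrophages and lymphatic vessels, had 16 and 117 CPM in wild type and 2.72 and 4.58 CPM in the knockout. Its wild-type libraries differed more from each other than the knockout pair did, and the log2 difference was -2.36 in pair 1 and -4.54 in pair 2. Uchl1, a ubiquitin hydrolase, had 9.99 and 11.8 CPM against 1.54 and 0.489 CPM. Reads of Uchl1 and its antisense partner Uchl1os cannot be told apart unless the counting used strand, which was not stated.

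Other genes ranked lower had varied roles. Igf2r, the mannose-6-phosphate receptor that carries enzymes to lysosomes, had 248 and 178 CPM in wild type and 79.9 and 75.0 CPM in the knockout. Epn2, an endocytic epsin, had 9.26 and 6.42 against 2.18 and 0.844 CPM, and Eps8, an actin-capping adaptor, 102 and 55.5 against 34.8 and 13.1 CPM. Timp2, an inhibitor of matrix metalloproteinases, had 389 and 377 CPM against 200 and 135 CPM. Rasgrp3, an activator of Ras, had 61.5 and 15.7 CPM against 11.4 and 3.42 CPM, and the adaptor Grap 15.2 and 7.05 against 4.40 and 0.755 CPM. Cbr2, a carbonyl reductase that marks some resident macrophages, had 79.9 and 52.2 CPM against 30.9 and 13.3 CPM. Dhrs9, Adgrl2 and Ankrd29 had log2 differences of -1.99, -0.99 and -1.68. The 15 lower genes had limma adjusted p from 0.0264 (Rbpj) to 0.375, and 14 of them were called lower by DESeq2, the exception being Ankrd29 (DESeq2 adjusted p = 0.0712). Here too the ranking used the same reads, so the DESeq2 calls add no separate evidence.

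Interferon-stimulated genes differed more between the 2 replicates than between the genotypes. Type I interferons induce these antiviral genes, and IRF7 amplifies the response. Irf7 had 20.8 and 393 CPM in wild type and 44.6 and 1130 CPM in the knockout. Within each pair the knockout was higher, by 1.08 and 1.52 on the log2 scale, but wild-type replicate 2 lay above knockout replicate 1 (1.30 ± 0.56, limma adjusted p = 0.839; DESeq2 adjusted p = 0.407). Mx1, an antiviral GTPase, had 2.26 and 37.9 CPM against 7.61 and 117 CPM. Ly6e had 148 and 880 against 343 and 2761 CPM, and it was the only one of the list called by DESeq2 (adjusted p = 0.00939).

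Of the 49 type I interferon-stimulated genes tested, 43 were higher and 0 lower in both pairs, beside 31.8% and 25.9% of all genes. In 49 of 49 the value in wild-type replicate 2 was above that in knockout replicate 1, so in none were the groups apart. The median log2 difference was 0.27 in pair 1, 0.99 in pair 2 and 0.61 in the fit, while the median difference of replicate 2 from replicate 1 was 2.46 within wild type and 3.01 within the knockout. Limma called 0 of them, with a smallest adjusted p of 0.489, and DESeq2 called 1 higher, beside 1.14% of all genes. Cxcl10, a chemokine induced by interferon, had 2.11 and 22.3 CPM in wild type and 3.90 and 23 CPM in the knockout. Transcripts of Ifnb1 and Ifna4 had no read in the 4 libraries.

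Guanylate-binding proteins and immunity-related GTPases, which attack intracellular pathogens and respond strongly to interferon-gamma, had the largest median of the lists. All 15 tested were higher in both pairs, beside 31.8% of all genes. The median log2 difference was 0.63 in pair 1, 1.96 in pair 2 and 1.30 in the fit. Gbp5 had 0.875 and 6.01 CPM in wild type and 3.72 and 31.9 CPM in the knockout, with overlap between the genotypes. Gbp8 had 0.219 and 1.11 CPM against 1.14 and 15.9 CPM, the only member whose groups were apart, and by a narrow margin. Gbp7 had 5.39 and 40.1 against 10.4 and 125 CPM, and Gbp3 5.94 and 21.0 against 11 and 104 CPM. DESeq2 called 5 of the 15 higher, beside 1.14% of all genes, and limma none (smallest adjusted p 0.274). Members of this family share sequence, so reads may have been split between them.

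Among genes that act upstream of interferon or shape its signal, Irf1 had 33.1 and 44.8 CPM in wild type and 60.4 and 123 CPM in the knockout. Its groups did not overlap (1.15 ± 0.24, limma adjusted p = 0.367; DESeq2 adjusted p = 0.0477). Socs3, a feedback inhibitor of cytokine signalling, had 2.51 and 1.26 CPM against 5.86 and 5.42 CPM. Of the 22 interferon induction genes tested, 16 were higher and 1 lower in both pairs, beside 31.8% and 25.9% of all genes. Their median log2 difference was 0.21. Irf8, a myeloid transcription factor that restrains osteoclast formation, had 218 and 115 CPM in wild type and 224 and 151 CPM in the knockout.

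**Figure D3:**
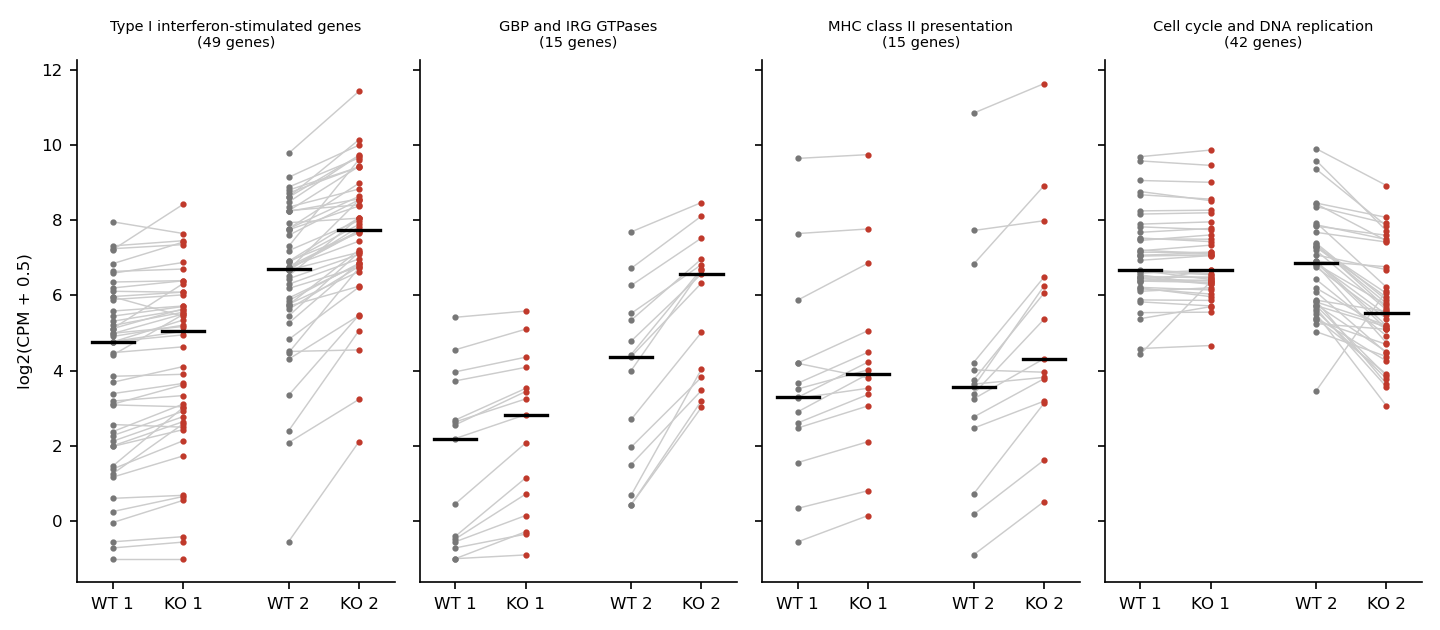
Each point is 1 gene of the named list, with log2(CPM + 0.5) on the y axis in wild-type (grey) and knockout (red) libraries of pair 1 and pair 2 at day 0; grey lines join the same gene within a pair and black bars are medians. Interferon-stimulated genes sit higher in both libraries of pair 2 than in pair 1, with list medians of 4.76 and 5.05 in pair 1 and 6.71 and 7.73 in pair 2, while cell cycle genes are lower in knockout replicate 2, at 5.53.

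MHC class II genes, which present extracellular antigen to CD4 T cells, had groups without overlap more often than interferon-stimulated genes. Overlap also depends on how far the replicates lie apart. For class II the median difference of replicate 2 from replicate 1 was 0.01 within wild type and 0.90 within the knockout, beside 2.46 and 3.01 for interferon-stimulated genes. H2-Ab1, the beta chain of I-A, had 7.0 and 9.94 CPM in wild type and 14.5 and 40.7 CPM in the knockout (1.49 ± 0.30, limma adjusted p = 0.367; DESeq2 adjusted p = 0.00224). H2-Aa, its alpha chain, had 9.29 and 13.0 CPM against 18.3 and 66.2 CPM, and H2-Eb1 18 and 18.1 against 33.0 and 89.2 CPM. Cd74, the invariant chain, had 58.3 and 114 CPM in wild type and 116 and 483 CPM in the knockout, where the nearest values of the 2 genotypes almost met. Ciita, the co-activator that controls the class II genes, had 2.44 and 1.15 CPM against 3.82 and 8.26 CPM, and H2-DMa, a peptide loader, 12.2 and 6.31 against 22 and 13.3 CPM. Of the 15 genes tested, 13 were higher in both pairs and 11 had groups that did not overlap, beside 31.8% and 9.86% of all genes. The list median was 0.59 in pair 1, 1.42 in pair 2 and 0.96 in the fit. DESeq2 called 4 members higher, beside 1.14% of all genes, and limma none (smallest adjusted p 0.367).

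Class I presentation was less separated. Tap1, of the peptide transporter, had 47.5 and 70.5 CPM in wild type and 66.9 and 157 CPM in the knockout, and Psmb9, of the immunoproteasome, 26.5 and 27.1 against 34.5 and 53.5 CPM. Of 20 genes tested 14 were higher in both pairs and 4 had groups apart, beside 31.8% and 9.86% of all genes. The median log2 difference was 0.45. Members of the class I H2 family are near-identical in sequence, and H2-Q6 and H2-Q7 are listed at 0.

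Genes of macrophage identity went in both directions. Nr1h3, the liver X receptor alpha, had 4.19 and 15.2 CPM in wild type and 15 and 65.7 CPM in the knockout, and Spic, a factor of red pulp macrophages, 0.255 and 3.49 against 3.68 and 31.0 CPM. Axl, a receptor for apoptotic cells, had 15.1 and 99.0 CPM against 45.1 and 704 CPM. Each was at least 2-fold higher in both pairs and was called by DESeq2, but for Axl and Nr1h3 wild-type replicate 2 exceeded knockout replicate 1. Cx3cr1, the fractalkine receptor, had 134 and 196 CPM in wild type and 354 and 589 CPM in the knockout (1.49 ± 1.10, limma adjusted p = 0.969), so its fitted error was large although the groups were apart. Mrc1, the mannose receptor, had 1138 and 1457 CPM against 881 and 892 CPM. Of the 31 resident macrophage genes tested, 13 were higher and 7 lower in both pairs, with a median of 0.24.

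Slc40a1, ferroportin, which exports iron from macrophages, had 282 and 550 CPM in wild type and 1217 and 2300.4 CPM in the knockout. The log2 differences were 2.11 and 2.06 in the 2 pairs (2.09 ± 0.39, limma adjusted p = 0.317; DESeq2 adjusted p = 0.000724). Slc40a1 was named from its list by moderated t, which favours pairs that agree, so that agreement is no result. Tfrc, the transferrin receptor that takes iron up, had 627 and 982 CPM against 431 and 194 CPM, and Steap3, an endosomal iron reductase, 166 and 95.4 against 117 and 50.5 CPM. The metallothionein, zinc and iron list as a whole had a median log2 difference of -0.05, with 5 of 20 genes higher and 6 lower in both pairs. Slc7a11, the cystine importer of the NRF2 programme, had 4.85 and 5.79 CPM in wild type and 14.8 and 47.5 CPM in the knockout. Of the 23 oxidative stress genes, 9 were lower and 5 higher in both pairs, beside 25.9% and 31.8% of all genes.

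Of the lectin receptors, Clec7a, Dectin-1, which recognises fungal beta-glucan, had 22.6 and 115 CPM in wild type and 105 and 583 CPM in the knockout. Its log2 differences were 2.20 and 2.33, yet the range of wild type reached past knockout replicate 1. Clec4n, Dectin-2, had 16.9 and 104 against 58.1 and 278 CPM. Cd14, the lipopolysaccharide co-receptor, had 590 and 378 CPM against 425 and 170 CPM. Over the 20 Toll-like receptor and lectin genes tested the median was -0.03, with 8 genes higher and 6 lower in both pairs.

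Cytokine and chemokine genes were divided. Spp1, osteopontin, had 5484 and 3732 CPM in wild type and 2137 and 386 CPM in the knockout (-2.32 ± 0.57, limma adjusted p = 0.465; DESeq2 adjusted p = 0.0243). Ccl2, which attracts monocytes, had 348 and 478 CPM against 193 and 28.1 CPM, and Ccl7 133 and 281 against 69.0 and 8.35 CPM. In these 3 genes the knockout was lower without overlap, and most of the distance came from knockout replicate 2. Il1b had 0.109 and 0.705 CPM in wild type and 0.822 and 13.0 CPM in the knockout, and Ccl5 1.31 and 1.37 against 2.54 and 36.2 CPM. Tnf itself had 18.4 and 28.4 CPM against 22.3 and 29.9 CPM, with overlap, and Il6 had 4 reads over the wild-type and 6 over the knockout libraries. Of 19 chemokine ligand genes tested 9 were higher and 6 lower in both pairs.

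Ccr1, a receptor for CCL3 and CCL5, had 53.0 and 40.5 CPM in wild type and 197 and 132 CPM in the knockout, with log2 differences of 1.89 and 1.70 (1.79 ± 0.36, limma adjusted p = 0.367; DESeq2 adjusted p = 0.00391). Ccr2, the receptor of classical monocytes, had 86.6 and 78.5 CPM against 78.4 and 172 CPM, and its pairs went in opposite directions. Of the colony-stimulating factor and cytokine receptors, 16 of 23 were higher in both pairs and 8 had groups apart, beside 31.8% and 9.86% of all genes. Il17ra had 88.1 and 93.6 CPM in wild type and 203 and 132 CPM in the knockout, and Csf2rb, the shared beta chain of GM-CSF and IL-3 receptors, 110 and 105 against 143 and 239 CPM. Csf1r, the receptor of the macrophage growth factor, had 1785 and 2249 CPM against 1863 and 3028 CPM, with overlap.

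Osteoclast genes, which summed to 2985 and 3537 CPM in wild type and 3122 and 3681 CPM in the knockout over 26 genes, had little common direction before TNF. Ocstamp and Dcstamp, which mediate fusion of osteoclast precursors, were low, with 0.547 and 0.334 against 1.97 and 1.42 CPM and 0.838 and 1.26 against 1.61 and 2.31 CPM, without overlap. Acp5, tartrate-resistant acid phosphatase, had 11.2 and 20.1 CPM against 18.7 and 64.1 CPM, and Ctsk, cathepsin K, 5.50 and 30.0 against 4.72 and 7.46 CPM. The master regulator Nfatc1 had 83.4 and 67.2 CPM in wild type and 77.8 and 88.8 CPM in the knockout, and Tnfrsf11a, the receptor RANK, 89.1 and 214 against 109 and 156 CPM, both with overlapping ranges. Of 25 osteoclast genes tested 10 were higher and 6 lower in both pairs, with a median of 0.07.

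Among the factors that regulate osteoclast and macrophage differentiation, Id3 and Id1, inhibitors of basic helix-loop-helix factors, were higher in the knockout without overlap. Id3 had 25.6 and 38.8 CPM in wild type and 70.3 and 99.95 CPM in the knockout (1.40 ± 0.34, limma adjusted p = 0.456; DESeq2 adjusted p = 0.00405), and Id1 18.5 and 23.8 against 57.2 and 42.5 CPM. Smad3, which transmits TGF-beta signals, had 28.8 and 21.8 CPM against 67.0 and 39.4 CPM. Id2 had 136 and 175 CPM against 117 and 264 CPM, Bcl6 82.9 and 87.0 against 95.8 and 104 CPM, and Myc 58.1 and 41.7 against 85.0 and 36.7 CPM. Arg1, arginase 1 of alternatively activated macrophages, had 18.8 and 8.24 CPM in wild type and 6.79 and 1.11 CPM in the knockout (-1.92 ± 1.14, limma adjusted p = 0.923). Its log2 differences were -1.41 and -2.44 in the 2 pairs. The fitted error also takes in the TNF libraries, with 65.2 and 0.254 CPM in wild type and 9.33 and 0.105 CPM in the knockout.

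Cell cycle genes set the pairs apart. In pair 1 the list median was -0.01 and 19 of 42 genes were higher in the knockout; in pair 2 it was -1.29 and 1 was higher, Ccnd2. The median in the fit, -0.65, was 0.06 without wild-type replicate 2 and -1.43 without wild-type replicate 1. Mki67, a marker of dividing cells, had 765 and 770 CPM in wild type and 704 and 210 CPM in the knockout, and Ccnb2, a mitotic cyclin, 87.8 and 47.7 against 78.4 and 13.3 CPM. The low values were those of knockout replicate 2, and 12 of 42 genes had groups apart in the lower direction, beside 8.66% of all genes. Cholesterol synthesis genes had a median of -0.37, with 16 of 24 lower and 0 higher in both pairs, beside 25.9% and 31.8% of all genes. Only 2 of the 24 had groups apart in the lower direction, beside 8.66% of all genes, and neither limma nor DESeq2 called any. Sqle, squalene epoxidase, had 185 and 84.7 CPM against 101 and 42.2 CPM, and the difference between its replicates was as large as that between genotypes. Of 30 glycolysis and hypoxia genes 17 were lower and 3 higher in both pairs (median -0.23), beside the same shares. Groups were apart for 1 in the lower and 2 in the higher direction, and neither tool called any. Hk3, a hexokinase, had 685 and 324 CPM against 496 and 207 CPM. For the 37 nuclear-encoded oxidative phosphorylation genes the median was 0.00.

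**Figure D4:**
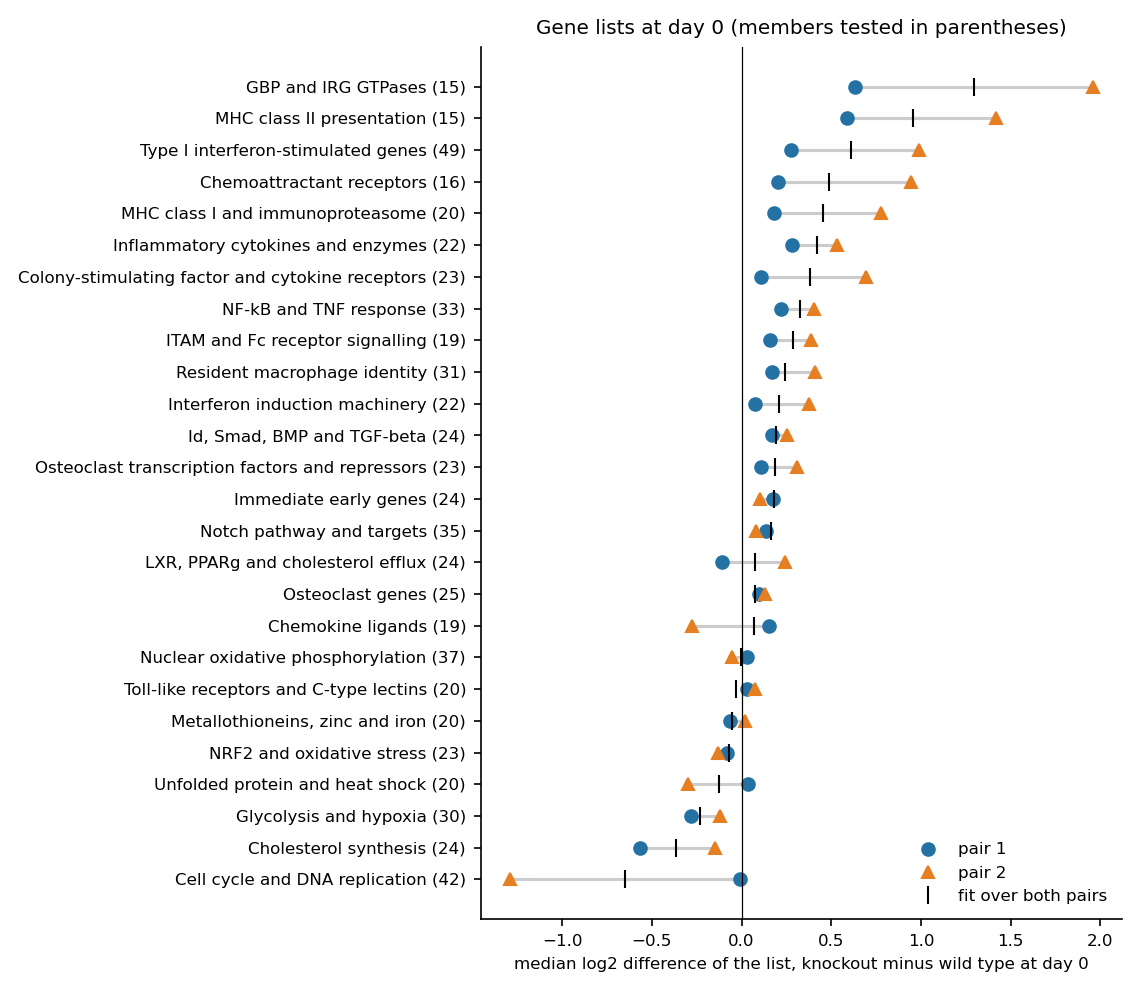
For each gene list the median log2 difference, knockout minus wild type at day 0, is shown for pair 1 (circle), pair 2 (triangle) and the fit over both pairs (bar), with the number of genes tested in parentheses. The GBP and IRG list lies highest (0.63 and 1.96), and the cell cycle list is near 0 in pair 1 and at -1.29 in pair 2.

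Of the cell marker lists, that of macrophages had the largest sums, and 5 of its 8 genes were higher and 3 lower in both pairs. Summed levels of 8 macrophage markers were 5507 and 6951 CPM in wild type and 5438 and 9185 CPM in the knockout. Lyz2, the locus that drives Cre, was low, at 7.65 and 30.3 against 7.25 and 13.4 CPM, and its reads can be shared with the near-identical Lyz1. The 17 neutrophil markers summed to 253 and 1177 CPM in wild type and 358 and 1467 CPM in the knockout, higher in replicate 2 of both genotypes. Of these 17, 13 were higher and 1 lower in both pairs, beside 31.8% and 25.9% of all genes. Dendritic cell markers (12 genes) summed to 20.6 and 26.0 CPM against 28.8 and 123 CPM, 9 of 11 tested were higher in both pairs, and Flt3 had 0.765 and 0.742 against 1.29 and 8.13 CPM. Knockout replicate 2 was the library with the highest dendritic cell and MHC class II values of the 4, and the part of such cells in the class II difference was not tested. Ccr7, a marker of migrating dendritic cells, had 1.13 and 0.408 against 2.29 and 9.86 CPM. Stromal markers summed to 274 and 174 CPM against 399 and 44.9 CPM, of which Fn1 alone gave 113 and 154 against 177 and 21.6 CPM. The 12 progenitor markers summed to 255 and 188 CPM against 283 and 284 CPM, and 8 of 11 tested were higher in both pairs. Irf8, also expressed in macrophages here, gave much of these sums, at 218 and 115 against 224 and 151 CPM. The 16 erythroid and megakaryocyte markers summed to 331 and 389 CPM against 410 and 318 CPM, with 2 of 8 tested higher and 2 lower in both pairs. Most of that sum came from Pf4, platelet factor 4, at 266 and 279 against 359 and 228 CPM, while the globin genes had no read in the 4 libraries. Eosinophil markers summed to 6.38 and 29.3 CPM against 13.1 and 47.3 CPM (3 of 3 tested higher in both pairs) and B lymphoid markers to 14.1 and 18.3 against 15.4 and 30.0 CPM (4 of 5). Gzma and Tpsb2 also had no read. The T and NK cell list summed to at most 20.8 CPM and the mast cell and basophil list to at most 11.9 CPM.

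Because the same genotypes were also sampled after TNF, the knockout difference at day 0 was set beside that after TNF and the change between them was tested. In limma no gene passed (0% of 12194; smallest adjusted p 0.0537), with 2192 genes at an unadjusted p under 0.05. edgeR also called 0, with 2202 at an unadjusted p under 0.05, while DESeq2 called 986 (8.09%). Pilra, at 2.28 ± 0.21 on the log2 scale at day 0, had -0.85 after TNF (limma adjusted p of the change 0.0593). Dst had 0.01 after TNF (0.104), Treml4 -0.31 (0.104) and Ccnd2 -0.33 (0.106). These genes were picked by their day 0 difference, which favours large day 0 values, so a smaller value after TNF is not by itself a change. Kdm6b had 1.71 after TNF, next to 1.73 at day 0, Tuba1a -1.67 next to -1.62, and Pdpn -3.24 next to -3.45. Prdm1 had 2.17 after TNF and 1.29 at day 0, and Hes1 1.67 and 3.86. The list of interferon-stimulated genes had a median of -0.61 after TNF and 0.61 at day 0, and that of MHC class II genes 0.32 and 0.96.

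**Figure D5:**
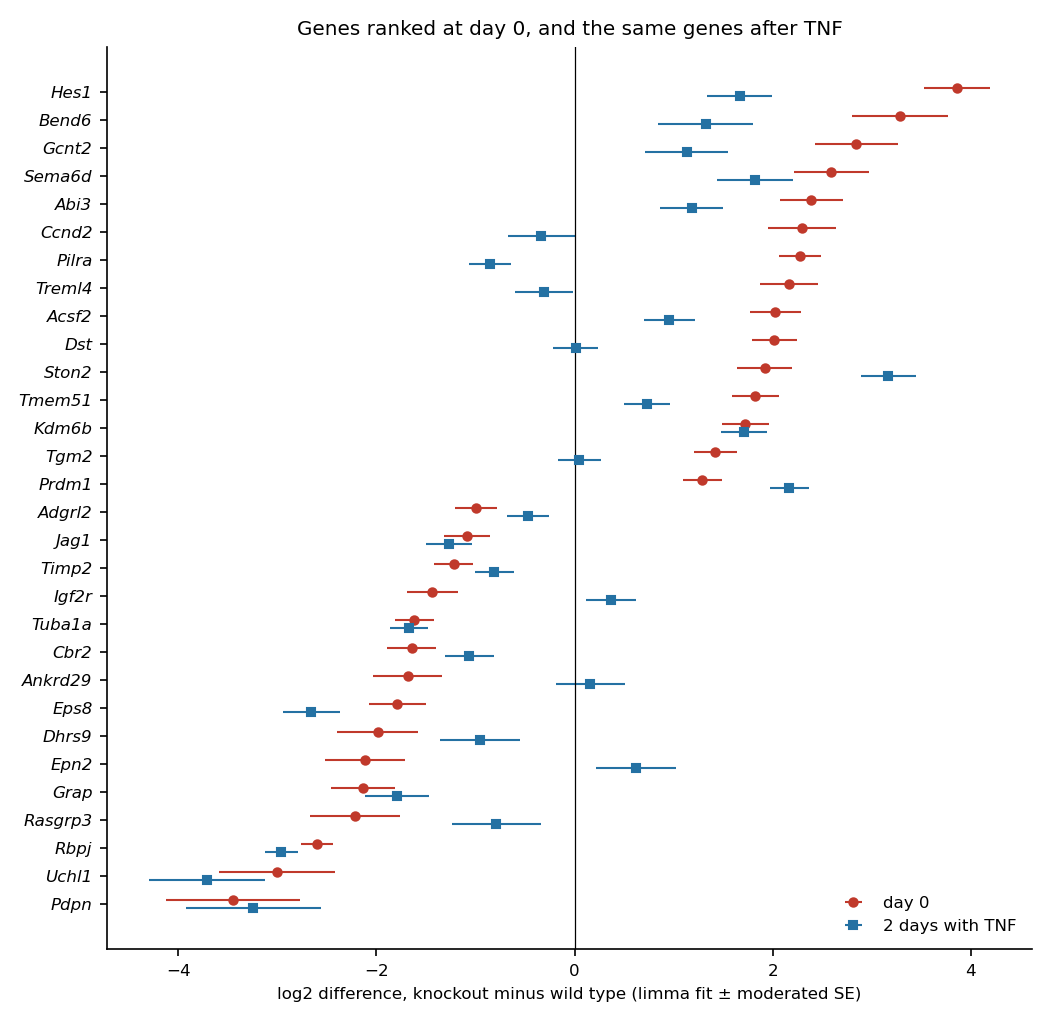
Log2 differences between knockout and wild type (points, with the moderated SE of the limma fit as bars) for the 15 genes ranked highest in each direction at day 0 (red circles) and the same genes after 2 days with TNF (blue squares). Pilra crosses 0, from 2.28 to -0.85, while Kdm6b and Tuba1a stay at 1.71 and -1.67.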

How the data were processed

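Poly-A RNA of bone marrow macrophages was sequenced in 8 libraries, 2 in each of 4 groups. The deposited values are CPM of 24421 genes. Per the submitters' processing notes, the authors used fastp, HISAT2, HTSeq and edgeR with genome build mm10; their settings are not given in the sources used here. In each library 100% of the CPM were multiples of 1 read (tolerance 0.01), which gave back the reads, 9855859 to 35653203 per library. Of the symbols, 27 had been turned into dates.

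The 2-sided limma test (lmFit, then eBayes with a trend) used log2(CPM + 0.5). It covered the 12194 genes that reached 1 CPM in 2 or more libraries, with group and replicate number as terms and all 8 libraries in the fit. P-values were adjusted by Benjamini-Hochberg over all genes. edgeR (quasi-likelihood) and DESeq2 on the recovered reads were alternatives, with other pseudocounts, filters and scalings and each library left out in turn. DESeq2 was version 1.42.0, edgeR 4.0.16 and limma 3.58.1, under R 4.3.3. The fits were tested on simulated reads. The series states 2 independent experiments, no label says outright that the replicate number marks them, and deviations of same-numbered libraries correlated in all 6 pairs of groups (Pearson r 0.577 to 0.805, across genes). Libraries of a group differed by more than sampling noise. Counting intervals are 95% and cover counting error only.

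Named genes were Rbpj, 27 genes fixed by name and the 15 per direction ranked by moderated t. That ranking took genes with a mean of at least 2 CPM in the higher group and no overlap. Up to 4 members of each list were named too, by the size of their moderated t. In both rankings genes past the threshold would have come first, and only Rbpj did. The comparison, the gene lists and the rules were chosen with earlier results of these data known. Some genes so named are not reported here. H2-Aa and Maml3 were named after their values were seen. Positions are from GENCODE M21 and promoters from RefSeq.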

Additional observations from a re-analysis of the deposited data

How the results depend on the processing

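Rbpj was lower in the knockout under every alternative run. Its call was lost, at the same log2 difference of -2.60, without the replicate block (adjusted p = 0.238), without a filter on low values (0.0578, over 17703 genes) and in the day 0 libraries alone (0.120), and at -2.62 with edgeR without the replicate block (0.240, an alternative added after the data were seen). When 1 library was left out its log2 difference ran from -2.79 to -2.41. The count of calls at day 0 was 0 under these 4 alternatives, 188 by DESeq2, and 0 to 2 when 1 library was left out, where Pilra was the gene added without either knockout TNF library. Of the 689 list members tested, 1 was called, 0 under the same 4 alternatives, and 0 to 1 when 1 library was left out. DESeq2 called 38 of these members, beside 1.14% of all genes called higher and 0.402% called lower. For the change of the knockout difference with TNF, 0 genes were called, also with no replicate block, but 1 with a pseudocount of 1, 8 after quantile normalization, 986 by DESeq2, and 0 to 358 when 1 library was left out; the 358 came without knockout TNF replicate 1. The cause of these shifts was not tested. DESeq2 called 58 of the 109 other named genes, many of which were picked by moderated t on the same reads, so this count is no result. The direction of 8 named genes with small differences turned when 1 library was left out, with log2 differences from -0.12 to 1.10 for Ccr2, -0.38 to 1.17 for Cxcl10, -0.46 to 0.83 for Id2, -0.63 to 1.0 for Myc, -0.060 to 0.36 for Nfatc1, -0.12 to 0.024 for Notch2, -0.042 to 0.38 for Tnf, -0.60 to 0.43 for Tnfrsf11a. Medians of gene lists carry no test. Of 35 lists, the sign of the median turned in 13 when 1 library was left out, with -1.43 to 0.06 for cell cycle, -0.38 to 0.33 for chemokine ligands and -0.090 to 0.21 for osteoclast genes. It stayed positive for interferon-stimulated genes (0.35 to 0.95), GBP and IRG genes (0.73 to 1.85) and MHC class II (0.75 to 1.40), lowest in each without knockout day 0 replicate 2. Leaving out 1 library moved the median by more than the SD between the 2 pairs in 17 lists, and other settings did so in 6, with B lymphoid markers falling from 0.60 to -0.015 under a filter of 5 CPM. At 2 libraries per group, precision is limited by their number.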

Other observations

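Treml4, described above, is a marker of the Ly6C-low monocyte, the patrolling cell of blood vessels, and the list of 16 such genes was written after their values were seen. Cd300e had 2.48 and 2.56 CPM in wild type and 18.8 and 10.2 CPM in the knockout, Itgal, the LFA-1 integrin chain, 25.4 and 142 CPM against 114 and 558 CPM, and Adgre4, the F4/80-related receptor, 0.401 and 1.71 CPM against 0.893 and 27.0 CPM. Of the 13 genes tested, 11 were higher and 1 lower in both pairs, beside 31.8% and 25.9% of all genes. The medians were 0.57 in pair 1 and 1.32 in pair 2. DESeq2 called 4 of them higher, beside 1.14% of all genes. Fabp4, the member that was lower, had 26.2 and 15.4 CPM against 11.7 and 3.82 CPM. After TNF the median was -0.78.

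A list of 22 activating and inhibitory receptors of macrophages, written likewise after the values were seen, had 14 of 21 tested genes higher and 2 lower in both pairs, with 8 at least 2-fold higher in both, beside 0.951% of all genes. Besides Pilra these included Siglece, an inhibitory sialic acid receptor, with 2.70 and 5.34 CPM against 10.2 and 51.1 CPM, Cd244, a SLAM receptor, with 8.56 and 1.08 CPM against 44.3 and 23.4 CPM, and Cd300a with 78.7 and 139 CPM against 177 and 299 CPM. Pilrb1 and Pilrb2 were higher too, but they lie beside Pilra and share sequence with it, so their reads may be split. No test was run on either list.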
